A study of Mus musculus with 2 samples.

Results

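The Sox transcription factors measured here are 10 genes: Sox4, Sox11 and Sox12 of the SoxC group, Sox1, Sox2 and Sox3 of SoxB1, Sox5 and Sox6 of SoxD, and Sox8 and Sox9 of SoxE. The 10 were listed with earlier results of these data known. Their probe sets were taken by name, as all whose platform annotation gave exactly 1 gene symbol that was one of these 10. That gave 37 probe sets of 45037 on the array, and 10 of 18193 named genes. The samples were the retina of 1 wild-type mouse embryo and the retina of 1 littermate labelled Sox11-/-, each of the C57BL/6 strain and dissected at embryonic day 18. Each was hybridised to 1 Affymetrix array, so there is no replicate, no error and no test, and each difference below is between 2 arrays. These arrays also differed in X- and Y-linked RNA, given with Sox3 below, so sex and genotype differ together. Which part of Sox11 was removed, and in which cells, is not given in the labels beyond calling the mutant a loss of function. The values are linear probe set intensities on the authors' scale, on which the mean without the 2% highest and 2% lowest probe sets was 100 on both arrays.

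Sox proteins share a DNA-binding domain, the HMG box, which sits in the minor groove and bends the DNA. They are sorted into groups by the similarity of that box, and members of a group can often stand in for each other. In the developing retina, SoxB1 factors keep progenitors in their state, SoxC factors act in cells that have begun to differentiate into neurons, and SoxE factors act in progenitors and later in Müller glia. SoxD proteins carry no activation domain of their own and pair with one another and with other factors, as with Sox9 in cartilage.

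The sequence just before the start of 3 of the genes is shown because the results turn on them: Sox11 is the gene targeted, Sox4 its closest relative in the retina, and Sox2 the SoxB1 factor of progenitors. Each run is the 250 bases before the start of the gene, 5′ to 3′ on the gene's own strand, from RefSeq on GRCm38.p6. The capitals mark CCAAT boxes (the letters CCAAT, or ATTGG on the other strand) and the core that Sox proteins bind (ACAAAG or ACAATG, either strand; the 2 kinds of motif overlapped nowhere here). The runs lie at chr12:27342719-27342968 (minus strand) for Sox11, chr13:28953700-28953949 (minus strand) for Sox4 and chr3:34649745-34649994 (plus strand) for Sox2.
Sox11: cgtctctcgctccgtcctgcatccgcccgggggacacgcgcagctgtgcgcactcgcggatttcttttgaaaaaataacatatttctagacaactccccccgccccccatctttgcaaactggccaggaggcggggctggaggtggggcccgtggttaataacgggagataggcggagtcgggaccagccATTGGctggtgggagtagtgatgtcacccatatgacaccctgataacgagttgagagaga
Sox4: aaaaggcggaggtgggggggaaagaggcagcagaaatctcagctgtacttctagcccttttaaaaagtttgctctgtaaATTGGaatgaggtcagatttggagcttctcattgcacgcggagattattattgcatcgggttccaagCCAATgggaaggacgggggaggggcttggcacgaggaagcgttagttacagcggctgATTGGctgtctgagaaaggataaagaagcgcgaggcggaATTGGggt
Sox2: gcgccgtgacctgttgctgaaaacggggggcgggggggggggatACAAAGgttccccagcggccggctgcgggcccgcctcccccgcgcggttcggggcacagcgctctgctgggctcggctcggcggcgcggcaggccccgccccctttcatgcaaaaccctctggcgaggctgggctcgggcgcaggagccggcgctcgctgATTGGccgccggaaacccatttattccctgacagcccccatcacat
Neither the Sox11 nor the Sox4 run held a Sox core, and the Sox2 run held 1, which began 206 bases before the start. Of all 32851 promoter windows of this length in the table, 25.2% held a Sox core. All 3 runs held a CCAAT box: Sox4 had 4, Sox11 had 1 that began 60 bases before the start, and Sox2 had 1 that began 46 bases before it. Among all windows, 33.8% held one. Windows on the genes' own chromosomes were taken for 8 of the 10 genes. There were 13 windows in all, since Sox6 has several starts and each other gene 1. Of the 13 windows, 7 held a CCAAT box and 7 a Sox core. Most of the windows with a Sox core were of Sox6, so that count mainly describes 1 gene. By gene, 6 of the 8 had a CCAAT box in at least 1 window. A Sox core was found for 3 genes, Sox2, Sox5 and Sox6. A match of letters is a description and not a binding site, and the CCAAT box was looked for after the sequences had been read.

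On the knockout array Sox11 stood apart from its family. On the scale used here, only Sox11 probe sets differed by 2-fold or more among those past the filter described next. Without the pseudocount, the dim Sox5 probe set 1432189_a_at would join them, at a log2 ratio of -1.21. Pairs of intensities below are given with the wild type first and the knockout second. Ratios are knockout minus wild type in log2(intensity + 5), which understates the change of dim probe sets. A probe set entered the counts if the higher of its 2 intensities reached 18.6, the pooled median, which stands in for the background since detection calls were not used. Of the 37 Sox probe sets 25 did, at least 1 for every gene but Sox1. Lower by 2-fold or more in the knockout were 4 of these 25, all of Sox11, against 0.399% of all 23581 probe sets past the same filter. At least 2-fold higher was 1 of 25, also of Sox11, against 1.47% of all. At 1.5-fold the counts were 5 lower and 1 higher, against 2.15% and 6.29% of all probe sets. The fifth lower one was that Sox5 probe set, whose knockout value lay below the filter. The split of all 2-fold differences depended on scaling: 78.7% of them were higher on the knockout array as deposited and 66.7% after quantile normalization.

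**Figure D1:**
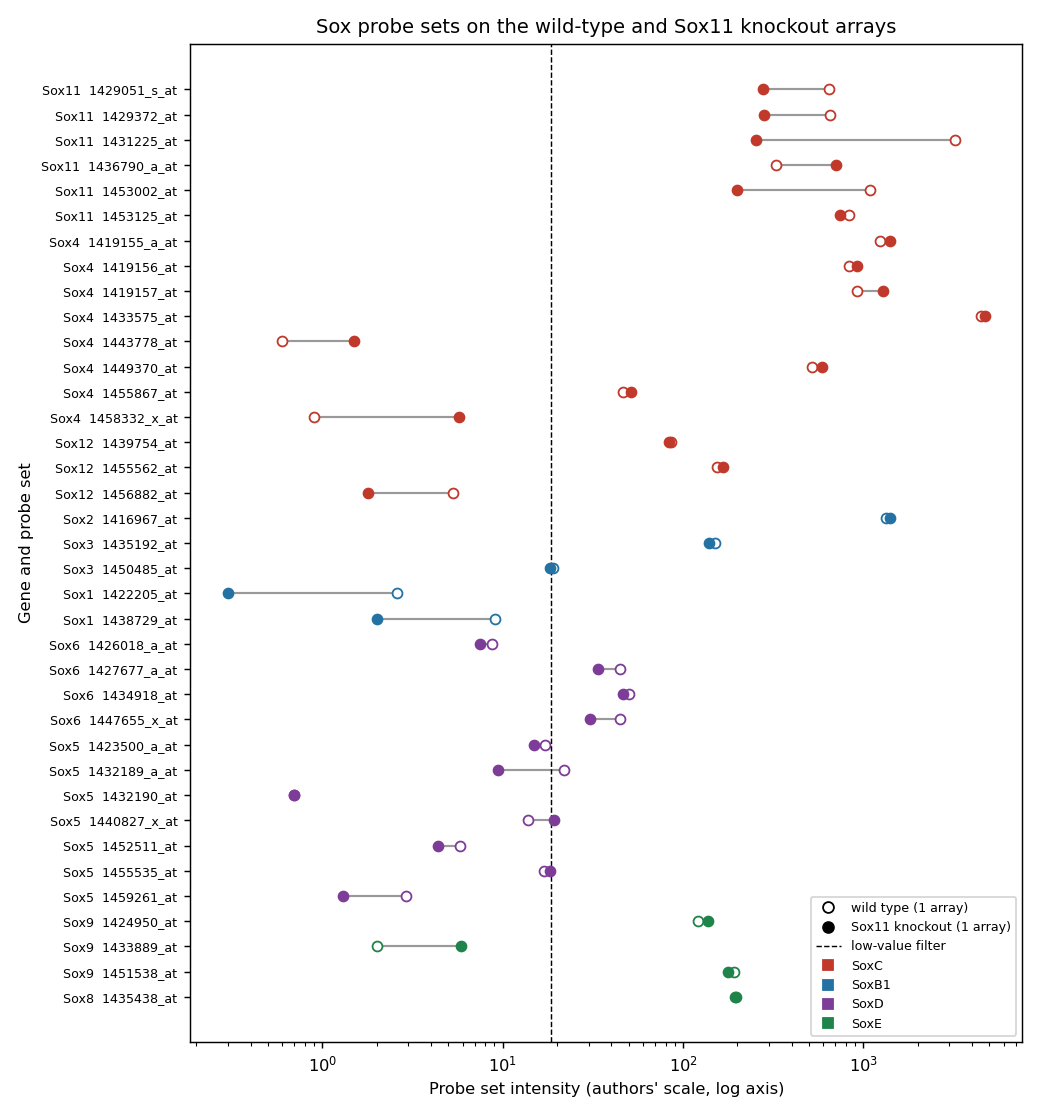
Intensity of each of the 37 Sox probe sets (log axis, authors' scale) on the wild-type array (open circles) and the Sox11 knockout array (filled circles), coloured by Sox group, with the low-value filter of 18.6 dashed. The wide gaps to the right of the filter belong to Sox11, and its probe set 1436790_a_at runs the opposite way to the others; levels of different probe sets cannot be set against each other.

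Sox11, the SoxC factor that was targeted, was measured by 6 probe sets, all past the filter, and they did not give 1 answer. Probe set 1431225_at went from 3205.7 on the wild-type array to 252.4 on the knockout array, which left 0.0787 of the wild-type intensity, a log2 ratio of -3.64. Only 6 of the 23581 probe sets past the filter had a lower ratio. Probe set 1453002_at read 1086.8 and 198.1, a log2 ratio of -2.43. Signal therefore remained well above the filter on the knockout array even where the gap was widest. The probe sets 1429372_at and 1429051_s_at gave nearly the same pair of values, 649.1 and 281.2 for the first and 647.2 and 276.0 for the second. Their log2 ratios were -1.19 and -1.21. Probe set 1453125_at read 836.9 and 740.2, a log2 ratio of -0.18, inside the central 95% of ratios at its level (-0.38 to 0.41). Probe set 1436790_a_at was higher in the knockout, at 328.8 and 701.7, a log2 ratio of 1.08 that 256 probe sets exceeded. The median over the 6 was -1.20. The labels do not say which bases were deleted, and the positions of the probe sets in the transcript were not available. Which Sox11 probe sets lie within the deleted bases is therefore not known.

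The disagreement held within pairs that cite the same sequence record in the annotation. The pair 1453002_at and 1429051_s_at share a record and gave -2.43 and -1.21. The pair 1429372_at and 1453125_at share another and gave -1.19 and -0.18. Among the 5612 genes with several probe sets past the filter, the median distance from the lowest to the highest ratio of a gene was 0.28 log2 units. For Sox11 it was 4.72, the largest of all, and the next largest was 3.14. Among the 102 genes with exactly 6 such probe sets, the median was 0.58 and the largest after Sox11 was 2.76. Sox11 was also the only one of the 5612 genes with a probe set at least 2-fold lower and another at least 2-fold higher. These are descriptions of 2 arrays.

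**Figure D2:**
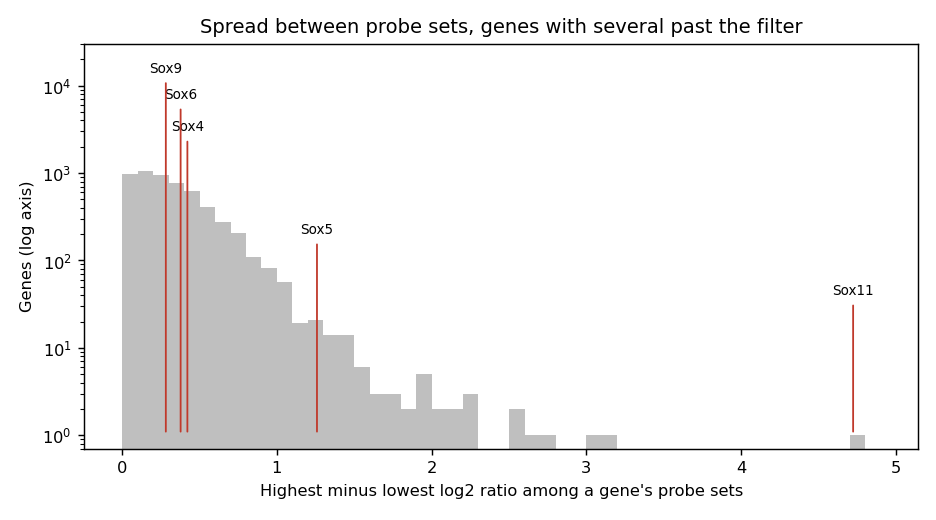
Number of genes (log axis) by the distance between the highest and the lowest log2 ratio of their probe sets, for the 5612 genes with several probe sets past the filter. Lines mark Sox9 at 0.28, Sox6 at 0.38, Sox4 at 0.42, Sox5 at 1.26 and Sox11 at 4.72, the last with empty space on its left down to 3.14.

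Sox4, which acts beside Sox11 in newly formed neurons, was slightly higher on the knockout array in each of its 6 probe sets past the filter, under the deposited scale and under all 3 other scalings run. Probe set 1433575_at read 4513.7 and 4702.8, a log2 ratio of 0.06. It was also the one that gave Sox4 its gene value, since a gene was given the value of its brightest passing probe set by mean log2 intensity. Probe set 1419157_at read 921.7 and 1288.0, a log2 ratio of 0.48, which lay outside the central 95% at its level (-0.38 to 0.41). This is the highest of the 6, and the others lay between 0.06 and 0.19. Probe set 1419155_a_at read 1238.5 and 1410.8, a log2 ratio of 0.19. Probe set 1419156_at read 829.7 and 921.3, a log2 ratio of 0.15. Probe set 1449370_at read 521.7 and 592.8, a log2 ratio of 0.18. These 3 and 1419157_at cite the same sequence record, so they are not independent readings of Sox4. Probe set 1455867_at read 46.4 and 51.2, a log2 ratio of 0.13. The remaining 2 probe sets of Sox4 did not pass, with intensities from 0.6 to 5.7. The median over the 6 was 0.17, beside a median of 0.03 over all probe sets past the filter.

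Sox12, the remaining SoxC gene and a weaker activator, was within 1.5-fold on both its measured probe sets. Probe set 1455562_at read 154.1 and 166.8, a log2 ratio of 0.11. Probe set 1439754_at read 86.0 and 83.3, a log2 ratio of -0.04, so the 2 had opposite signs. The last, 1456882_at, was below the filter on both arrays at 5.3 and 1.8. With 1 value a gene, the SoxC median was 0.06, which says little of a group whose members were Sox4 at 0.06, Sox12 at 0.11 and Sox11 at -3.64. Past the filter, no probe set of Sox4 or Sox12 was 1.5-fold apart between the arrays.

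**Figure D3:**
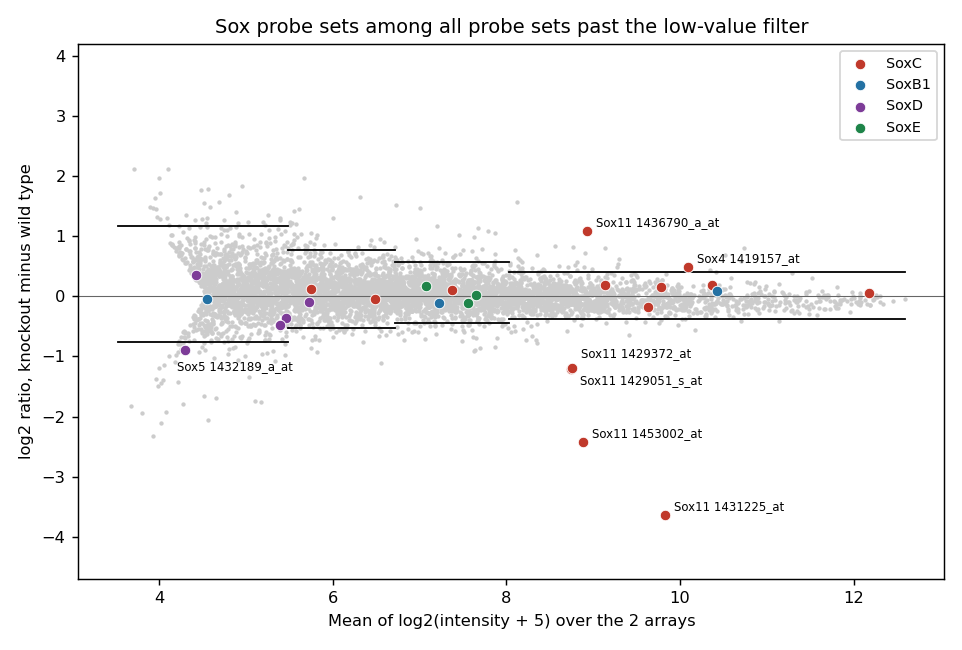
log2 ratio (knockout minus wild type) against the mean of log2(intensity + 5) for the 25 Sox probe sets past the filter, coloured by group, over a fixed sample of 6000 of all 23581 probe sets (grey). Black lines give the central 95% of ratios in 4 bands of level; the 7 labelled probe sets lie outside them, 5 of Sox11, 1 of Sox4 and 1 of Sox5.

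The SoxB1 genes that could be measured differed by less than 1.5-fold. Sox2, which keeps retinal progenitors able to divide and to form neurons, had 1 probe set, 1416967_at, at 1329.1 and 1409.4, a log2 ratio of 0.08 (0.05 to 0.15 over the scalings). Sox3, a close relative of Sox2 that lies on the X chromosome, had 2. Probe set 1435192_at read 150.6 and 139.5, a log2 ratio of -0.11. Probe set 1450485_at sat at the filter, at 18.9 and 18.2, a log2 ratio of -0.04. The arrays also differed in sex-linked RNA. The probe set 1436936_s_at of Xist, the long RNA by which females silence an X chromosome, read 12.3 and 922.7. The Y-linked genes went the other way. Eif2s3y (1417210_at) read 214.0 and 4.7, Kdm5d (1424903_at) 130.4 and 3.5, and Uty (1426598_at) 104.9 and 2.0. Sex and genotype thus differed together between the 2 arrays and cannot be told apart in any ratio here. The part of sex in the Sox3 values was not tested. Sox1, which drives crystallin genes in the lens, was below the filter in both probe sets, with 9.1 and 2.0 for 1438729_at and 2.6 and 0.3 for 1422205_at. No ratio is given for it. The median of Sox2 and Sox3 was -0.01, and it crossed 0 after quantile normalization and after loess. The RNA Sox2ot, which overlaps Sox2 and was added after its value was seen, read 114.1 and 119.2, a log2 ratio of 0.06.

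The SoxE genes Sox8 and Sox9, which act in progenitors and in Müller glia, also differed by less than 1.5-fold. Sox8 had 1 probe set, 1435438_at, at 195.0 and 197.5, a log2 ratio of 0.02 that was -0.01 once the ratios were centred on their median. For Sox9, 1451538_at read 190.8 and 176.6, a log2 ratio of -0.11. Probe set 1424950_at read 121.8 and 138.0, a log2 ratio of 0.17. These 2 probe sets of Sox9 cite the same sequence record and had opposite signs, so the direction for Sox9 is not settled by these arrays. The last, 1433889_at, was below the filter at 2.0 and 5.9. The SoxE median was -0.05.

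The SoxD genes were dim on both arrays, and this is where the values are least certain. Sox6, a partner of Sox9 in cartilage, was lower in the knockout in each of its 3 probe sets past the filter, under the deposited scale and the 3 other scalings. Probe set 1447655_x_at read 44.5 and 30.6, a log2 ratio of -0.48. Probe set 1427677_a_at read 44.9 and 33.8, a log2 ratio of -0.36. Probe set 1434918_at, which gave the gene value, read 49.9 and 46.3, a log2 ratio of -0.10. All 3 lay inside the central 95% of ratios at their level, -0.76 to 1.18 for the dimmest band of level and -0.53 to 0.77 for the band above it. The fourth, 1426018_a_at, did not pass, at 8.7 and 7.5, nor did the probe set of the antisense RNA Sox6os, at 4.9 and 3.6.

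Sox5, the other SoxD gene, had 7 probe sets, of which 2 passed, each by 1 array only. Probe set 1432189_a_at read 21.8 and 9.4, a log2 ratio of -0.90. With the dimmer array only bounded by the filter, it was at least 1.17-fold lower in the knockout. Probe set 1440827_x_at read 13.9 and 19.3, a log2 ratio of 0.36, or at least 1.04-fold higher. The 2 thus pointed in opposite directions, and neither array had both above the filter. Closest below the filter were 1455535_at at 16.9 and 18.4 and 1423500_a_at at 17.2 and 15.0. The other 3 read between 0.7 and 5.8. The SoxD median with 1 value a gene was 0.13, and it was -0.31 with the median over the probe sets of each gene, and -0.02 with Sox5 at its bound, so its direction is not settled.

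Counted against the spread at their own level, 7 of the 25 Sox probe sets lay outside the central 95% of their band, where 5.02% of all probe sets did. Without Sox11 it was 2 of 19, the Sox4 probe set 1419157_at above and the Sox5 probe set 1432189_a_at below. Over the 9 genes with a value, the median log2 ratio was 0.02, beside -0.01 over all 11557 genes past the filter.

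Of 10 other members of the family, 2 could be measured and differed little. Sox13, a SoxD gene, read 67.5 and 67.3, a log2 ratio of 0.00 to 2 decimals. Sox21, a SoxB2 gene that counters SoxB1 factors, read 19.2 and 19.5, a log2 ratio of 0.02 that turned to -0.11 under another scaling. Sox7, Sox10, Sox14, Sox15, Sox17, Sox18, Sox30 and Sry had no probe set past the filter. The highest intensity among them was 18.5, for Sox10, a SoxE factor of neural crest and oligodendrocytes. Among these 8, Sox7, Sox17 and Sox18 are known from endothelium and Sry from the Y chromosome.

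Genes that work with Sox proteins mostly differed by less than 1.5-fold, and the exceptions did not share a direction. Past the filter, 2.17% of all 11557 genes were lower by 1.5-fold or more in the knockout and 3.78% higher by as much. Of 13 partner factors listed, 10 had a value, with a median of -0.05, 1 higher and 1 lower by 1.5-fold. Pou3f1 read 219.6 and 347.2, a log2 ratio of 0.65, and Pou3f2 read 23.1 and 32.0, a log2 ratio of 0.40. The 3 probe sets of Pou3f2 past the filter differed in sign, from -0.25 to 0.53. Pou3f3 read 31.1 and 5.4, at least 1.67-fold lower. It passed through the wild-type array alone, so its direction was fixed by that. Pou6f1 read 137.0 and 99.9, a log2 ratio of -0.44. The Pou3f proteins are POU factors that can bind DNA beside Sox proteins. Ctnnb1, the gene of beta-catenin, and Pax6, which pairs with Sox2 in the lens, lay between the extremes.

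Of 10 neuronal genes tied to SoxC factors, 9 had a value, with a median of 0.11. Of the 9 ratios, 6 were positive, 1 of them 1.5-fold higher, and none was 1.5-fold lower. Over all 11557 genes past the filter, 5511 ratios were positive and 6026 negative. Atoh7, needed for ganglion cells to form, read 945.0 and 1731.0, a log2 ratio of 0.87. Isl1, a ganglion cell and amacrine cell factor, read 785.1 and 901.5, a log2 ratio of 0.20. At the other end, Tead2, reported as a SoxC target, read 212.8 and 197.9, a log2 ratio of -0.10, and Map2, a microtubule protein of dendrites, read 863.8 and 825.0, a log2 ratio of -0.07. For Map2 the median over its probe sets was 0.20, with the opposite sign. The neuronal tubulin Tubb3 and the migration gene Dcx, both known SoxC targets, lay between these ends.

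Of 12 progenitor genes tied to SoxB1 factors, 11 had a value, with a median of -0.06 and none 1.5-fold apart. Nes, the progenitor intermediate filament nestin, read 49.3 and 68.3, a log2 ratio of 0.43, and Lhx2, an eye field factor, read 935.6 and 1071.6, a log2 ratio of 0.19. The Notch target Hes5 read 2263.8 and 1904.9, a log2 ratio of -0.25, and Notch1 itself read 711.4 and 636.3, a log2 ratio of -0.16. The 8 negative ratios of the 11 were thus all small, and 6026 of all 11557 genes also had a negative ratio. Among probe sets past the filter, the median ratio was 0.15 in the dimmest band of level and -0.04 in the brightest.

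All 8 glial genes tied to SoxE factors had a value, with a median of -0.12, 2 lower by 1.5-fold and none higher. Rlbp1, which carries retinaldehyde in Müller glia and pigment epithelium, read 296.5 and 147.0, a log2 ratio of -0.99. Nfix, a nuclear factor of late progenitors and glia, read 356.6 and 201.7, a log2 ratio of -0.81. Apoe, a lipid carrier made by glia and macrophages, read 325.0 and 455.3, a log2 ratio of 0.48, and Vim, the intermediate filament vimentin, read 1855.8 and 2201.0, a log2 ratio of 0.25. All 3 Nfix probe sets past the filter were at least 1.5-fold lower, with log2 ratios from -0.81 to -0.59. Both lower gene values came from probe sets that can match several transcripts. Without probe sets of that kind 4 genes of the list kept a value, and none of these was 1.5-fold lower. Rlbp1 and Nfix were not among the 4, so leaving out those probe sets could not test their lower values.

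Of 11 cartilage genes tied to SoxE and SoxD factors, 5 had a value, with a median of 0.01 that was as low as -0.12 under another scaling. Col2a1, the type II collagen that Sox9 activates, read 389.5 and 245.3, a log2 ratio of -0.66, and Col11a1 read 34.4 and 30.4, a log2 ratio of -0.15. The type IX collagens Col9a3 and Col9a1 were at 0.26, from 153.6 to 184.7, and 0.21, from 2101.9 to 2428.8. For Col11a1 the 2 probe sets past the filter had opposite signs, at -0.15 and 0.34. Those of Col9a3 did as well, at -0.03 and 0.26. Acan, Comp, Matn1, Matn3, Hapln1 and Col11a2 were below the filter on both arrays.

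**Figure D4:**
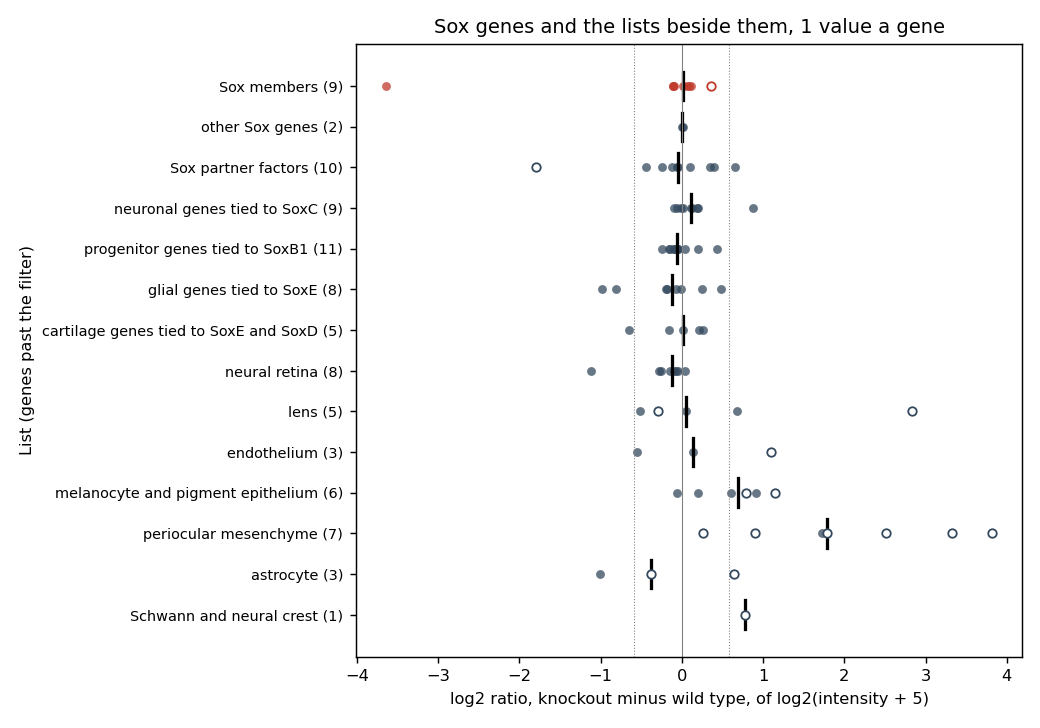
log2 ratio of each gene (points) and the median (bar) for the 9 Sox genes with a value and for each list of partner, target and marker genes past the filter, with the number of genes in brackets and dotted lines at 1.5-fold. Open points have 1 array below the filter, so their size is not settled, as for 6 of the 7 mesenchyme genes; the Sox genes cluster near 0 except Sox11 at -3.64.

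Markers of other tissues differed between the arrays, and several of those tissues carry Sox genes. All 8 neural retina markers with a value were past the filter on both arrays, with summed intensities of 8059.8 and 7248.7 and 1 gene 1.5-fold lower in the knockout. That gene was Nrl, at 632.8 and 289.0, a log2 ratio of -1.12. Of the 8 ratios 7 were negative, beside 6026 of all 11557 genes. In the counts of markers that follow, a value below the filter was set to the filter, so that a fold is a bound. By the same rule, 339 of all 11557 genes were at least 1.5-fold higher in the knockout and 194 were lower by as much. Periocular mesenchyme, which can hold Sox9 and SoxC RNA, had 7 of 10 markers past the filter, with summed intensities of 81.4 and 598.3. In 6 of these 7 the wild-type value was below the filter, so they passed through the knockout array alone and their direction was fixed by that. The bound reached 1.5-fold in 5 of the 7, among them Col1a2, the 1 marker above the filter on both arrays, at 19.6 and 76.1. Melanocyte and pigment epithelium markers had 6 of 6, 2 of them at least 1.5-fold higher, with sums of 271.6 and 412.6. Of these 6, Tyr and Mlana passed through the knockout array alone. Lens markers had 5 of 8, 2 of them at least 1.5-fold higher, with sums of 303.7 and 377.9. One of these 2, Crygd, at 4.2 and 60.7, passed through the knockout array alone, so its direction was fixed by that. Cryaa, at 116.4 and 79.8, and Lim2, at 20.9 and 16.1, were lower in the knockout. The lens markers Mip, Bfsp1 and Foxe3 were below the filter on both arrays, as was Sox1. Endothelial markers had 3 of 7, none at least 1.5-fold apart, with sums of 813.4 and 626.3. That sum was mostly Kdr, at 673.2 and 456.1, while Cldn5 and Esam were higher in the knockout. Astrocyte markers had 3 of 6, 1 of them at least 1.5-fold lower and none higher by as much, with sums of 189.2 and 112.1. Those sums were mostly Pdgfra, at 156.2 and 74.9. Gfap, at 20.2 and 14.4, and Aldh1l1, at 12.8 and 22.8, each passed by 1 array only and had opposite directions. Of the Schwann and neural crest list, only Erbb3 passed, at 10.1 and 20.8, through the knockout array alone. No marker of these lists was at 0 on either array. The part of these cells in the Sox values was not tested, and in a whole retina fewer cells of a type and less RNA per cell cannot be told apart.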

How the data were processed

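RNA from the retina of 1 wild-type embryo and of 1 littermate labelled Sox11-/- was hybridised to 1 Affymetrix array each. Per the labels' protocols, the cDNA was amplified, and 500 ng of total RNA was reverse transcribed from an oligo-dT primer and transcribed into labelled cRNA. The deposited values are linear probe set intensities as the authors scaled them; the software is not given in the sources used here, and detection calls were not used. An oligo-dT primer favours the 3′ end of transcripts.

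The 64 control probe sets were left out. Values were taken as log2 of the intensity plus 5, the pooled 25th percentile of both arrays, with no further scaling. Probe sets whose higher intensity was under 18.6, the pooled median, were left out of counts. Names came from GEO's platform annotation; all 37 Sox probe sets matched a gene table of GRCm38.p6 by Entrez number, and no symbol changed. A gene was given the value of its brightest passing probe set. A bound is the brighter intensity over 18.6. Central 95% ranges were taken in 4 equal bands of level.

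With 1 array per genotype there is no test, and the number of arrays limits the precision. Named were all Sox probe sets, all measured members of the family, and up to 2 genes with the highest and 2 with the lowest ratio of each list of partners and targets. Genes outside this rule were named after their values were seen. The Sox genes, the lists and the rule were chosen with earlier results of these data known. Alternatives were centring, quantile normalization, loess with a span of 0.3, pseudocounts, filters, probe set suffixes and medians over probe sets. The ratio code was tested on simulated data. Python 3.11.15, pandas 2.3.3 and statsmodels 0.14.6 were used.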

Additional observations from a re-analysis of the deposited data

How the results depend on the processing

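With no replicates, a ratio was taken as moved when it shifted by more than 0.26 log2 units, the pooled SD between probe sets of a gene. Of 166 recomputed ratios of Sox genes, Sox groups and the lists of partners and targets, 161 stayed within it and none past 1.5-fold changed sign. The other 5 were these. With each gene at the median of its probe sets, Sox11 was at -1.20, Sox5 at -0.27, Sox6 at -0.36 and the SoxD median at -0.31; without a low-value filter, Sox5 was at 0.10. Of the counts of Sox probe sets, those at least 1.5-fold higher were 3 without the filter. Leaving out probe sets with s, x or a in the suffix left 0 at 1.5-fold higher, 0 at 2-fold higher and 3 at 1.5-fold lower; these are fewer probe sets, 18 in place of 25. Sox11 ratios per probe set held under all scalings, with -3.67 to -3.59 for 1431225_at and 1.05 to 1.11 for 1436790_a_at. Sox1 had a value only without the filter, and no scaling moved the median of all genes by 0.1 or more. With 1 array per genotype, no difference here could be set against the spread between retinas of a genotype, and Sox5, Sox6 and Sox3 probe sets near the filter are the least certain.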

Other observations

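Among the 12 genes whose probe sets disagreed most were 2 that lie close to Sox11 on chromosome 12. Adi1, an enzyme of methionine salvage, is separated from Sox11 by 5 protein-coding genes in GRCm38.p6. Its probe set 1438758_at went from 129.4 on the wild-type array to 20.1 on the knockout array, and 1438759_x_at read 163.2 and 44.8. In contrast, 1449076_x_at read 117.3 and 196.3, so its ratios ran from -2.42 to 0.72. Acp1, an acid phosphatase, is 15 protein-coding genes away, and its 5 probe sets ran from -1.80 to 0.37. Both were picked out after their values were seen, and the cause was not tested. The other 9 genes besides Sox11 lie elsewhere, as far as the table places them, and include the sex-linked Xist and Kdm5d.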
